A study of Mus musculus with 14 samples.

Results

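The 11 probe sets described here report the growth-promoting chromatin protein Hmga2, the Polycomb protein Bmi1, the Ink4-Arf cell-cycle inhibitors Cdkn2a and Cdkn2b, the inhibitor Cdkn1a, and a pair listed under Trp53. They were chosen by gene name from the 45101 probe sets of the array, to ask whether neurospheres from adult brain lose Hmga2 and gain cell-cycle inhibitors against embryonic ones. The probe annotation used here names 9 of the 11, as 3 probe sets of Hmga2, 2 each of Bmi1 and Cdkn1a, and 1 each of Cdkn2a and Cdkn2b. The probe sets 1426538_a_at and 1427739_a_at were listed under Trp53 when the members were chosen, and that annotation leaves them unnamed.

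Total RNA of secondary neurospheres was measured on 14 Affymetrix Mouse Genome 430 2.0 arrays, 1 array per sample. Neurospheres are floating clusters grown from dissociated neural tissue, in which neural stem and progenitor cells divide and part of the progeny differentiates, and secondary spheres are those grown again from dissociated primary spheres. The donors were outbred CD-1 mice, and no treatment was given. The adult wild-type spheres came from neocortex, from striatum and from the subventricular zone (SVZ), the germinal layer that lines the lateral ventricles. Each adult region had 3 arrays. The embryonic spheres, taken at E14.5, came from dorsal forebrain (2 arrays), ventral forebrain (2 arrays) and spinal cord (1 array). No label states that the samples of 1 group are separate animals or cultures, and p-values here measure the spread between samples, which may be technical. In spheres, which mix cell types, fewer cells of a type and less RNA per cell cannot be told apart.

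Hmga2 is an architectural chromatin protein of fetal and stem cells. In mouse neural stem cells it is known to restrain the Ink4-Arf locus and to decline with age. Bmi1, a subunit of Polycomb repressive complex 1, silences the same locus and is needed for neural stem cell self-renewal. The locus encodes Cdkn2b (p15Ink4b) and, from Cdkn2a, p16Ink4a and p19Arf: the Ink4 proteins block the cyclin D kinases that inactivate RB, and Arf blocks Mdm2 and so stabilises p53, which switches on Cdkn1a (p21).

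The promoters of the members that differed most between ages are shown. They place the Cdkn2a and Cdkn2b starts side by side on chromosome 4 and hold a p53 element at the upstream Cdkn1a start. Each window holds 250 bases before and 50 after a RefSeq transcript start in the GRCm38.p6 build, read 5′ to 3′ on the strand of the gene. Capitals mark GC boxes (GGGCGG or its reverse complement CCGCCC, overlaps counted) in the first 4 windows. In the last, capitals mark a match to the p53 response element, made of a pair of adjacent decamers.
Hmga2, chr10:120476420-120476719, minus strand: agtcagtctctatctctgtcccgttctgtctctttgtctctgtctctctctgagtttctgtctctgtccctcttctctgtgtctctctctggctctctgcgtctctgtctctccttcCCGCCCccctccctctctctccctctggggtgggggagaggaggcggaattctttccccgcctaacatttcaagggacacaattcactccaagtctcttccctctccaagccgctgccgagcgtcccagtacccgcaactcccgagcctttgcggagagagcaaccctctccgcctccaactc
Cdkn2a, upstream start, chr4:89294570-89294869, minus strand: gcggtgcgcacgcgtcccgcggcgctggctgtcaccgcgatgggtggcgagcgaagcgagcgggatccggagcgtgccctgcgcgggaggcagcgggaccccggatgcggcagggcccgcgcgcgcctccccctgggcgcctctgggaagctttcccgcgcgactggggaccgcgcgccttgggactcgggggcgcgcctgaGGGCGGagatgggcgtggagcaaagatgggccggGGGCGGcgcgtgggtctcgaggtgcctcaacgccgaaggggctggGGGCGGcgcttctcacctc
Cdkn2a, downstream start, chr4:89282143-89282442, minus strand: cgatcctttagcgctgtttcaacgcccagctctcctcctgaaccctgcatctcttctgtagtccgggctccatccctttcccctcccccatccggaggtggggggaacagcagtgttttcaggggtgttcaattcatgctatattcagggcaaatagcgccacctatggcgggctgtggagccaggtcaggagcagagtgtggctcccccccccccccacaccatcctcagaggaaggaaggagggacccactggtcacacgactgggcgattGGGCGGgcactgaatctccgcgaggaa
Cdkn2b, chr4:89310983-89311282, minus strand: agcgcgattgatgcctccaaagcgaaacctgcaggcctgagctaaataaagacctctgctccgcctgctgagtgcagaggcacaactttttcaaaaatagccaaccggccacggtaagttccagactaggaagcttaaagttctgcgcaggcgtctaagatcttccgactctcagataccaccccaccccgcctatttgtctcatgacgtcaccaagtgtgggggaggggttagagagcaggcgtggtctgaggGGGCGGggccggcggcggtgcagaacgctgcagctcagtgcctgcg
Cdkn1a, upstream start, chr17:29090729-29091028, plus strand: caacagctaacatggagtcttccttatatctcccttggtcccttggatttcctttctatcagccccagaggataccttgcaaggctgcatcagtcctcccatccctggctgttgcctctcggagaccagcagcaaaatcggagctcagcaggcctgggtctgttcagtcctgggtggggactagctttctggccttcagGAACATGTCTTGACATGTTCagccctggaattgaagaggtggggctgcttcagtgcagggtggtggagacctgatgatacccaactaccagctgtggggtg

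The upstream Cdkn2a window, at the start that gives Arf, was 77.0% G or C with 45 CpG dinucleotides and 3 GC boxes. The downstream Cdkn2a window was 60.3% G or C with 12 CpG and 1 GC box, and the Cdkn2b window 57.7% with 18 CpG and 1 GC box. The Hmga2 window, also 57.7% G or C, held 12 CpG and 1 GC box. Across the 32851 RefSeq promoter windows of this length the median was 52.7% G or C and 7 CpG, and 35.7% held a GC box. No window of these genes held TATAAA on either strand, which 13.6% of all windows did. The p53 element of the upstream Cdkn1a window began at base 200 and had 1 mismatch to the decamer consensus, which was allowed after the sequence had been read. A match with at most 1 mismatch stood in 18 of the 32851 windows, or 0.0548%. The window of a downstream Cdkn1a start, not shown, held 0 such matches (64.7% G or C, 23 CpG, 2 GC boxes). Of the 30 p53 target genes used below, 21 had a window, and 0 of these held such a match. These letters describe the windows only, since no binding was measured.

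Signals are the deposited linear values, and detection p-values say whether a probe set stood above background. Array medians lay between 222.1 and 334.8, and 60.2% to 68.6% of probe sets were detected per array at a detection p under 0.05. For tests, 27 was added to each signal, log2 was taken and each array was centred on its median, so that fold changes understate the change of dim probe sets. A probe set detected on at least 2 arrays was tested, which kept 35211 of 45101 and all 11 members. Differences were tested with limma in 1 fit over the 14 arrays, and calls were made at an adjusted p under 0.05 after Benjamini-Hochberg adjustment over all tested. Markers of neural stem and progenitor cells were present, 10 of 11 being detected on all 9 adult arrays and 11 of 11 on all 4 embryonic forebrain arrays. The 4 embryonic forebrain arrays differed by sample number: those of number 1 and those of number 2 stood apart in both regions, as the marker sums below show, and the members and gene lists are also described against each number alone. Such a fit leaves 1 array per embryonic group, so the spread behind its calls and p-values came from the adult arrays only. It assumes that embryonic groups vary as adult ones do. For Cdkn2b the highest array had 1.4 times the lowest in adult spheres, against 44.6 times in embryonic forebrain spheres. Calls against 1 number alone therefore do not measure the spread between embryonic samples.

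Adult spheres had more Hmga2 than embryonic forebrain spheres, not less, and also more Cdkn2a, Cdkn2b and Cdkn1a. Bmi1 was lower in adult spheres, and the unnamed pair was not called. Of the 11 members 9 were called, 7 higher and 2 lower. These 9 probe sets read 5 genes, and the members were chosen with earlier results of these data known. Of all tested probe sets 41.2% were called (21.6% higher and 19.6% lower), a share against which the count of members is no test. For 8 of 11 the 9 adult and the 4 embryonic forebrain arrays did not overlap, against 20.0% of tested probe sets. Against either number alone, the Hmga2, Cdkn2a, Cdkn2b and Cdkn1a members were still higher in adult spheres. Both Bmi1 probe sets were still lower, at log2 differences of -0.245 (1417493_at) and -0.448 (1448733_at) against number 1.

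**Figure D1:**
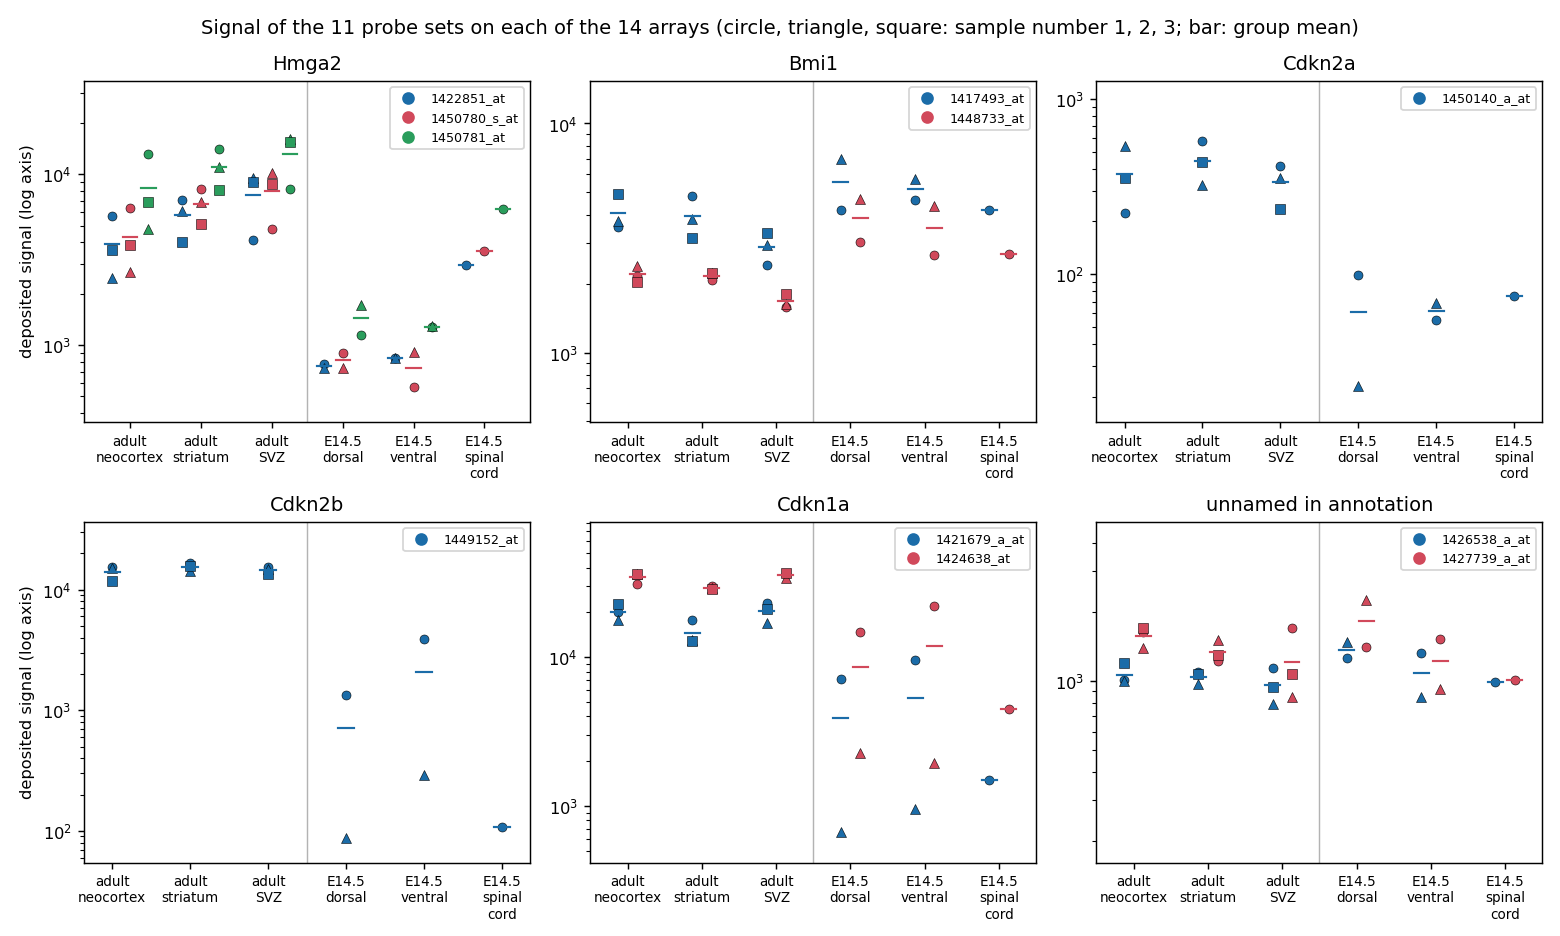
Deposited signal of the 11 probe sets on each of the 14 arrays, on log axes, with 1 panel per gene. Circles, triangles and squares are samples 1, 2 and 3 of a group and bars are group means. Every adult point of Hmga2 lies above every embryonic forebrain point of the same probe set, and the embryonic points of Cdkn2b and Cdkn1a split by sample number.

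Hmga2 was read by 3 probe sets, of which 1450781_at was the brightest. Its signal was 13159.5, 4764 and 6891 in adult neocortex, 14153, 10989.7 and 8098 in adult striatum, and 8220.1, 16027 and 15450.3 in adult SVZ, against 1150.4 and 1715 in dorsal and 1276 and 1287 in ventral embryonic forebrain. The lowest adult array, neocortex 2, stood above the highest embryonic forebrain array, dorsal 2. The adult mean was 10861.5 ± 4053 (SD, n = 9) and the embryonic forebrain mean 1357 ± 247 (SD, n = 4). The difference was 7.89-fold, or 2.98 ± 0.27 on the log2 scale (SE, adjusted p = 3.42e-06).

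The other Hmga2 probe sets also separated the ages. The probe set 1422851_at ranged from 2483 to 9569 in adult spheres, against 737 to 842 in embryonic forebrain spheres, a 6.86-fold difference (log2 2.78 ± 0.26, adjusted p = 4.82e-06). The probe set 1450780_s_at, whose suffix marks probes that can match more than 1 transcript, ranged from 2664 to 10228 in adult spheres, against 567 to 908 in embryonic forebrain spheres (7.94-fold, adjusted p = 2.45e-06). Across the 14 arrays the 3 probe sets had pairwise correlations of 0.988 to 0.991, as a description of probe sets for 1 gene. Another probe set annotated to Hmga2, 1446196_at, which is no member and was noted after its values were seen, was dim, with means of 70.9 in adult and 26.1 in embryonic forebrain spheres.

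The Hmga2 difference varied little with the embryonic arrays used. For 1450781_at it was 3.10 on the log2 scale against the arrays of number 1 and 2.87 against those of number 2. The ratio of number 1 to number 2 lay between 0.625 and 1.23 over the 3 probe sets and both forebrain regions. Spread was instead on the adult side, where the highest array had 3.85 times the signal of the lowest for 1422851_at, against 1.14 times in embryonic forebrain.

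The single spinal cord array read 6269.8 for 1450781_at, 2963 for 1422851_at and 3578 for 1450780_s_at. For all 3 probe sets it lay above every embryonic forebrain array and within the adult range, above neocortex 2. With 1 array it has no replicate check and was not tested.

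Bmi1 was lower in adult spheres by both of its probe sets. The probe set 1448733_at had 2159, 2385 and 2041 in adult neocortex, 2072, 2213 and 2219 in adult striatum, and 1585.5, 1632 and 1799 in adult SVZ, against 3042 and 4676 in dorsal and 2670.4 and 4352 in ventral embryonic forebrain. No adult array reached the lowest embryonic forebrain array, ventral 1, and the 3 SVZ arrays were the lowest of all. The adult mean was 2012 ± 278 (SD, n = 9) and the embryonic forebrain mean 3685 ± 978 (SD, n = 4), so that the signal fell by 0.75 on the log2 scale (SE 0.15, adjusted p = 0.00131). Against the arrays of number 1 alone the log2 difference was -0.45, and against those of number 2 it was -1.05.

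The second Bmi1 probe set, 1417493_at, overlapped between the ages. It ranged from 2405 to 4919 in adult spheres, against 4188 to 6965 in embryonic forebrain spheres. Its log2 difference was -0.47 ± 0.17 (adjusted p = 0.0423), and in 13 of 26 alternative settings it missed the threshold. Leaving out neocortex 1 or 2, striatum 2 or 3, SVZ 1 or 2, dorsal 2 or ventral 2 each ended the call, with adjusted p-values from 0.0606 to 0.23, and against the arrays of number 1 alone the adjusted p was 0.39. The spinal cord array read 4189 for this probe set and 2681 for 1448733_at.

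Cdkn2a was dim and rose in adult spheres. Its probe set 1450140_a_at, whose suffix marks probes shared by alternative transcripts of a gene, does not tell p16Ink4a from p19Arf here. The signal was 224, 536 and 354 in adult neocortex, 573, 324 and 436 in adult striatum, and 416, 354 and 237 in adult SVZ, against 99.6 and 23.1 in dorsal and 55.1 and 69.1 in ventral embryonic forebrain. It was detected on 9 of 9 adult arrays, against 1 of 2 dorsal and 1 of 2 ventral arrays, and it was not detected on the spinal cord array, which read 74.8. All adult arrays lay above all embryonic ones. The difference was 5.0-fold, or 2.32 ± 0.32 on the log2 scale (SE, adjusted p = 9.31e-05), from an adult mean of 384 ± 120.0 (SD, n = 9) and an embryonic forebrain mean of 61.7 ± 31.8 (SD, n = 4). Against number 1 alone it was 2.02 and against number 2 alone 2.63.

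Cdkn2b, the p15Ink4b inhibitor that TGF-beta signalling is known to induce, showed the largest difference of the 11 members over all 4 embryonic forebrain arrays and against number 2. Against number 1 it was smaller than that of Hmga2 1450781_at. Probe set 1449152_at read 15293, 15041 and 11871 in adult neocortex, 16637, 14319 and 15597 in adult striatum, and 15489, 14765 and 13575 in adult SVZ. In embryonic spheres it read 1339.8 and 87.3 in dorsal forebrain, 3895 and 293 in ventral forebrain and 108 in spinal cord. Every adult array stood above every embryonic one, and the adult arrays lay close together, the highest being 1.4 times the lowest, against 44.6 times among the embryonic forebrain arrays. It was detected on 1 of 2 dorsal arrays. The difference over all arrays was 23.5-fold, or 4.56 ± 0.62 on the log2 scale (SE, 95% interval 3.21 to 5.90, adjusted p = 9.57e-05).

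The embryonic arrays of number 1 carried 15.3 times the Cdkn2b signal of number 2 in dorsal and 13.3 times in ventral forebrain. The size of the age difference therefore followed the embryonic arrays used, while its direction did not. It was 6.63-fold (log2 2.73) against the arrays of number 1 and 83.6-fold (log2 6.39) against those of number 2.

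**Figure D2:**
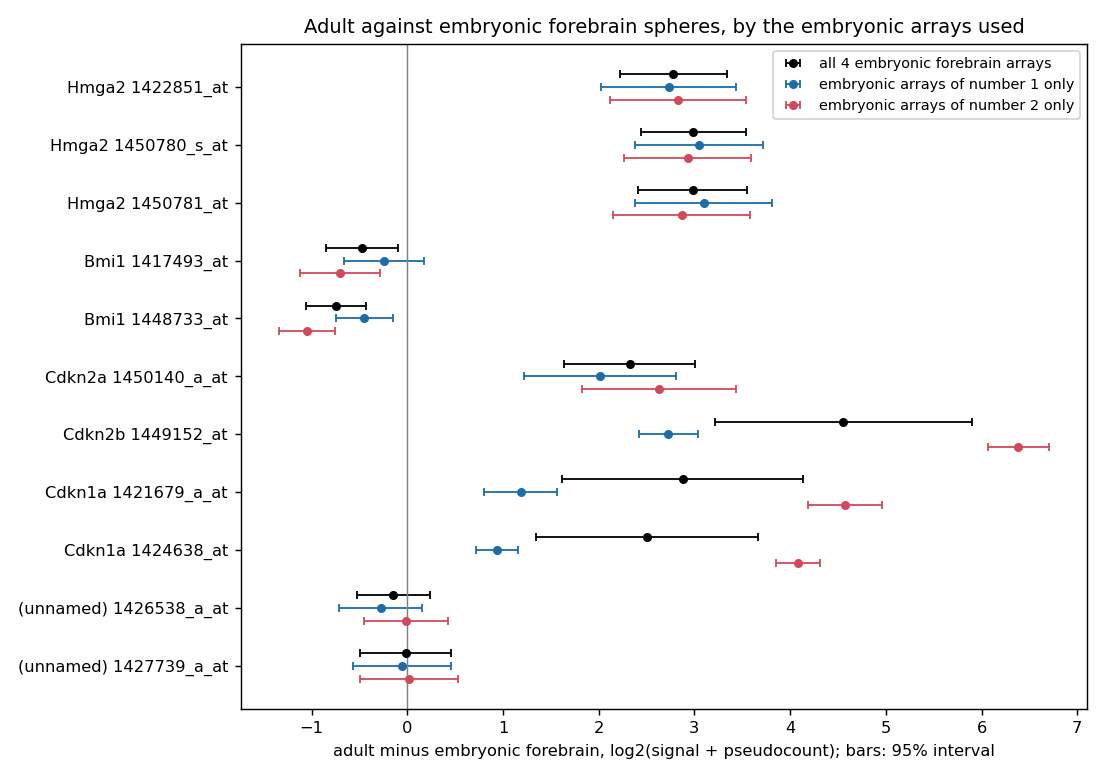
Adult minus embryonic forebrain difference of each member on the log2(signal + pseudocount) scale, with 95% intervals, for all 4 embryonic forebrain arrays, for those of number 1 only and for those of number 2 only. Intervals against 1 number only rest on the spread of the adult arrays. The 3 Hmga2 estimates stay within 2.73 to 3.10, whereas Cdkn2b lies at 2.73 against number 1 and 6.39 against number 2.

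Cdkn1a, which encodes the p21 inhibitor of cyclin-dependent kinases, had the highest signals of the members and behaved in the same way. Probe set 1424638_at read 31249.7, 36214 and 36168 in adult neocortex, 29914, 29014 and 28886 in adult striatum, and 36142, 34051 and 37004 in adult SVZ, against 14800.4 and 2270.4 in dorsal and 21987 and 1933 in ventral embryonic forebrain. The ages did not overlap, and the arrays of number 1 stood nearest to the adult ones. The difference was 5.69-fold, or 2.51 ± 0.54 on the log2 scale (SE, adjusted p = 0.00233). Against number 1 alone it was 1.91-fold and against number 2 alone 16.9-fold.

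The other Cdkn1a probe set, 1421679_a_at, ranged from 12849 to 23219 in adult spheres, against 664 to 9614 in embryonic forebrain spheres. It was 7.35-fold higher (log2 2.88 ± 0.58, adjusted p = 0.00162), 2.27-fold against number 1 and 23.8-fold against number 2. Number 1 exceeded number 2 by 10.7 times in dorsal and 10 times in ventral forebrain for this probe set, and by 6.52 and 11.4 times for 1424638_at. The spinal cord array, at 1499 and 4449, stood near the arrays of number 2.

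The unnamed pair listed under Trp53 was not called at any of the 8 comparisons. The probe set 1426538_a_at ranged from 789.7 to 1191 in adult spheres, against 847 to 1475 in embryonic forebrain spheres, with a log2 difference of -0.15 and a 95% interval of -0.53 to 0.23 (adjusted p = 0.539). For 1427739_a_at the range was 848 to 1701 in adult spheres, against 918 to 2247 in embryonic forebrain spheres, with a difference of -0.02 and an interval of -0.49 to 0.45 (adjusted p = 0.953). Groups overlapped for both. The interval of 1426538_a_at leaves room for a fall of about 0.53 or a rise of about 0.23 on the log2 scale. That of 1427739_a_at leaves room for about 0.5 in either direction.

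Markers of other cell types moved with the same comparisons. Of the marker genes tested, 7 of 7 astrocyte and 8 of 10 oligodendrocyte genes rose in adult spheres, 9 of 9 neuroblast and young neuron genes and 9 of 9 proliferation genes fell, and 8 of 15 microglia and macrophage genes rose. Against number 1 alone 14 of the 15 microglia and macrophage genes rose and 0 fell, and against number 2 alone 6 rose and 2 fell. Against number 1 and number 2 alone, 7 and 7 astrocyte and 6 and 10 oligodendrocyte genes rose, and 7 and 9 neuroblast and 9 and 7 proliferation genes fell, in that order. The summed neuroblast signal was 14386 to 22184 in adult spheres, against 62694.5 to 203464 in embryonic forebrain spheres, and the summed proliferation signal 28196 to 77696, against 81591 to 121149. The summed oligodendrocyte signal was 69743 to 194834 in adult spheres, against 40110.4 to 55959.9 in the embryonic arrays of number 1 and 4375 to 6393 in those of number 2, with Mag and Mobp detected on 9 of 9 adult and 0 of 4 embryonic forebrain arrays. The summed astrocyte signal was 55214 to 122184 in adult spheres, against 13842 to 38657 in embryonic forebrain spheres.

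The embryonic arrays that were high in Cdkn2b and Cdkn1a were also low in vascular and immune markers. The summed microglia and macrophage signal was 2471 to 100696 in adult spheres, against 1105 and 1140.4 in the arrays of number 1 and 11965 to 15288 in those of number 2. Of these 15 genes, Itgam, C1qa, Cd14 and Trem2 were detected on 0 of 4 embryonic forebrain arrays. The summed endothelial and mural signal was 1545 to 10499 in adult spheres, against 649 to 652 in number 1 and 11461 to 14463 in number 2, and 0 of 8 of these genes were called by limma, with 2 at an unadjusted p under 0.05. Of the 8, 3 rose against number 1 alone and 6 fell against number 2 alone. Of the fibroblast and mesenchymal genes 4 of 6 fell in adult spheres, with sums of 607 to 1577, against 1129 to 30314 in embryonic forebrain spheres, and Dcn was detected on 0 of 9 adult arrays. Of 4 tested skeletal muscle genes 0 were called by limma and 0 had an unadjusted p under 0.05, and the sum was 425 to 995 in adult spheres, against 368 to 2146 in embryonic forebrain spheres and 35181 in the spinal cord array. Of 11 neural stem and progenitor genes 2 rose and 2 fell (0 and 2 against number 1, 5 and 3 against number 2), with sums of 136629 to 197156 in adult spheres, against 123754 to 177630.0 in embryonic forebrain spheres. The part of these cell types in the differences of the members was not tested.

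Each adult region was then compared with the same 4 embryonic forebrain arrays, so these 3 comparisons share their embryonic values. Adult neocortex had 7 members higher and 1 lower, where 31.8% of all tested probe sets were called (14.8% higher and 17.0% lower). Adult striatum had 7 higher and 1 lower, where 25.8% were called (11.4% lower and the rest higher). Adult SVZ had 7 higher and 2 lower, where 37.1% were called (21.3% higher and 15.8% lower). The 7 higher members were in each case the 3 Hmga2, the Cdkn2a, the Cdkn2b and the 2 Cdkn1a probe sets. The arrays did not overlap for 8, 8 and 9 of the 11 members in neocortex, striatum and SVZ, against 36.9%, 33.6% and 41.5% of all tested probe sets.

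For Hmga2 1450781_at the difference was 5.5-fold in neocortex, 8.39-fold in striatum and 10.6-fold in SVZ (log2 2.46 ± 0.34, 3.07 ± 0.34 and 3.41 ± 0.34, SE). Cdkn2b was 20.9-fold, 24.7-fold and 25.2-fold higher in the same order, and Cdkn2a 4.46-fold, 5.81-fold and 4.84-fold. Against the embryonic arrays of number 1 alone Cdkn2b was 5.88-fold higher in neocortex, 6.97-fold in striatum and 7.1-fold in SVZ, and against number 2 alone 74.2-fold, 87.9-fold and 89.5-fold. Cdkn1a 1424638_at was 5.53-fold higher in neocortex (adjusted p = 0.0149), 5.02-fold in striatum (adjusted p = 0.0244) and 6.62-fold in SVZ (adjusted p = 0.00709). In the same order these were 1.86-fold, 1.69-fold and 2.22-fold against number 1 alone, and 16.5-fold, 15-fold and 19.7-fold against number 2 alone. For Hmga2 1450781_at they were 5.96-fold, 9.09-fold and 11.5-fold against number 1 and 5.08-fold, 7.75-fold and 9.84-fold against number 2. With only the compared groups in the fit the Cdkn1a calls held in SVZ but were lost in neocortex and striatum. There the adjusted p-values were 0.0789 and 0.108 for 1424638_at, and 0.0582 and 0.105 for 1421679_a_at. The striatal Cdkn1a calls and the Bmi1 1448733_at call did not hold when any striatal array, dorsal 2 or ventral 2 was left out, which took the members called in striatum to 5 of 11 each time. Bmi1 1448733_at fell in neocortex (log2 -0.71, adjusted p = 0.0109), striatum (-0.63, adjusted p = 0.0247) and SVZ (-0.89, adjusted p = 0.00234), and 1417493_at fell in SVZ (-0.67, adjusted p = 0.0285). The calls of 1448733_at in neocortex and striatum were lost against number 1 alone (-0.42, adjusted p = 0.0804, and -0.34, adjusted p = 0.189) and with only the compared groups in the fit (adjusted p = 0.0622 and 0.0984). In neocortex and striatum 1417493_at stood at -0.40 and -0.35 (adjusted p = 0.191 and 0.265).

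**Figure D3:**
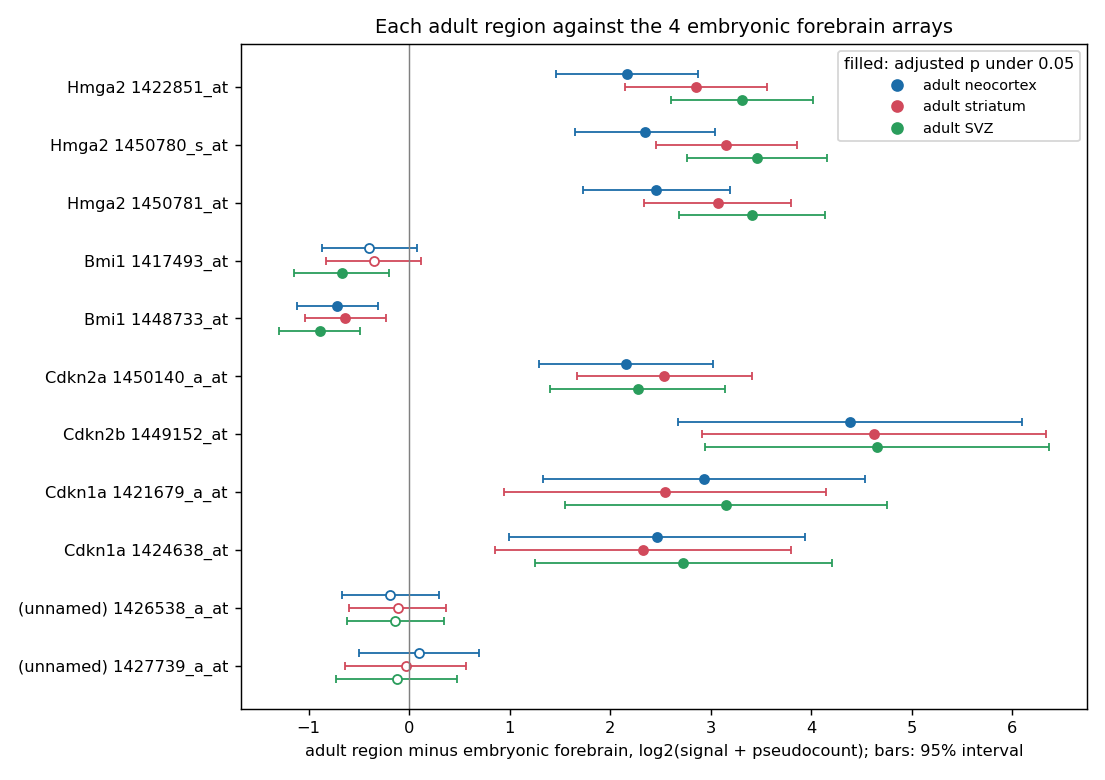
Difference of adult neocortex, striatum and SVZ from the 4 embryonic forebrain arrays for each member, on the log2(signal + pseudocount) scale with 95% intervals. Filled points have an adjusted p under 0.05. In every region the Hmga2, Cdkn2a, Cdkn2b and Cdkn1a points lie to the right of 0 and are filled, and the unnamed pair spans 0.

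Between adult regions no member was called by limma. Hmga2 came nearest, being lower in neocortex than in SVZ, and its 3 probe sets were the only members with an unadjusted p under 0.05 there. The log2 difference was -1.14 ± 0.35 for 1422851_at (adjusted p = 0.0557), -1.11 ± 0.35 for 1450780_s_at (adjusted p = 0.0588) and -0.95 ± 0.36 for 1450781_at (adjusted p = 0.112), in a comparison where 10.5% of all tested probe sets were called. The arrays overlapped, since neocortex 1 read 13159.5 and SVZ 1 read 8220.1 for 1450781_at. Without neocortex 1 all 3 probe sets passed the threshold, with adjusted p-values from 0.0224 to 0.0256, and without SVZ 1 the 2 probe sets 1422851_at and 1450780_s_at did, with 0.0286 and 0.0445.

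By group means of 1450781_at the order was SVZ (13233 ± 4350.5), striatum (11080.4 ± 3028), neocortex (8271 ± 4365, SD, n = 3 each), spinal cord, dorsal forebrain (1433 ± 399, n = 2) and ventral forebrain (1282 ± 7.42, n = 2). Neighbouring adult regions differed by less than their SDs, and the embryonic forebrain regions by less than the SD of the dorsal arrays. Within same-numbered samples, neocortex was lower than striatum in 3 of 3 for each of the 3 Hmga2 probe sets. With the sample number as a block in limma the adjusted p-values were 0.45 to 0.597. That block is shared by the adult and embryonic forebrain arrays, so it is no paired test of these 2 regions alone.

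Striatum against SVZ gave 0 members called, where 2.31% of all tested probe sets were called, and neocortex against striatum gave 0, where 0.471% were. At an unadjusted p under 0.05 these counts were 0 and 1, the 1 being Hmga2 1450780_s_at, at 4301 ± 1892 in neocortex and 6751 ± 1551 in striatum (SD, n = 3 each). On the centred log2 scale 2 of 11 members did not overlap between striatum and SVZ, against 25.8% of all tested probe sets, and 2 of 11 between neocortex and SVZ, against 37.1%. They were Bmi1 1448733_at and Cdkn1a 1424638_at both times. Bmi1 1448733_at had 2072 to 2219 in striatum, against 1585.5 to 1799 in SVZ (log2 0.26, adjusted p = 0.58). Cdkn1a 1424638_at stood at 28886 to 29914 in striatum, against 34051 to 37004 in SVZ, with a log2 difference of -0.40 (95% interval -1.98 to 1.18, adjusted p = 0.847). The SE of this difference was 0.73 in the fit of all 14 arrays and 0.12 with only striatum and SVZ in the fit, where the adjusted p was 0.0829. Cdkn2b differed little between adult regions, at 14068 ± 1907, 15518 ± 1161 and 14609.6 ± 966 in neocortex, striatum and SVZ (SD, n = 3 each). Embryonic dorsal against ventral forebrain gave 0 members called and 0 with an unadjusted p under 0.05, where 0.0398% of tested probe sets were called, with Cdkn2b at 1339.8 and 87.3 in dorsal, against 3895 and 293 in ventral forebrain (log2 -1.42, 95% interval -3.66 to 0.82).

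The genes around the members were counted on lists, with the brightest probe set of each gene. Over all 14617 genes so represented, 47.8% were called, 26.7% higher and 21.1% lower in adult spheres.

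The genes listed around Hmga2 as a fetal programme did not rise with it, and those called went the other way. Of 12 tested genes of the list of Lin28, Igf2bp, Mycn and related fetal genes, 0 rose and 7 fell, with a median log2 difference of -0.68. Against number 1 alone 0 rose and 5 fell, and against number 2 alone 1 rose and 8 fell. Mycn, a growth-promoting transcription factor of neural progenitors, had signals of 116 to 545 in adult spheres, against 1451 to 9636 in embryonic forebrain spheres (log2 -3.55, adjusted p = 3.29e-05). Igf2bp1, an mRNA-binding protein of fetal tissue, was detected on 0 of 9 adult and 4 of 4 embryonic forebrain arrays and was lower in adult spheres by at least 15.3-fold (means 37.7 and 1356, adjusted p = 1.44e-05). Igf2bp3 fell by 2.81 and Plagl2 by 1.03 on the log2 scale. The embryonic means of number 1 and number 2 were 1892 and 8426 for Mycn and 527 and 2185 for Igf2bp1. For Igf2bp3 these means were 5756 and 4527, and for Plagl2 1145 and 1939. Lin28b, which blocks let-7 maturation and so spares Hmga2 mRNA, was dim, with means of 9.33 in adult and 43.9 in embryonic forebrain spheres (adjusted p = 0.0988). The other genes not called were Lin28a, Trim71, Myc and Nr6a1, at log2 differences of 0.28, 0.045, -0.035 and 0.52. The list was not sorted by what each gene does to Hmga2, and Dicer1, also on it, stood at -0.58.

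Most of the Polycomb genes listed around Bmi1, 13 of 23, were not called. Over all genes represented by 1 probe set 47.8% were called, and 21.1% were called lower. Of 23 tested genes 1 rose and 9 fell, with a median of -0.11 (0 and 8 against number 1, 3 and 8 against number 2). Cbx2, a chromodomain subunit of complex 1, fell by 2.17, and Pcgf2, the closest relative of Bmi1, by 1.70 on the log2 scale. Ezh2, the methyltransferase of complex 2, had a mean of 4373.5 in adult and 12048 in embryonic forebrain spheres (log2 -1.41, adjusted p = 3.32e-06), and its cofactor Jarid2 fell by 1.03. The embryonic means of number 1 and number 2 were 804 and 1505 for Cbx2 and 1092 and 3081 for Pcgf2. For Ezh2 these means were 10919 and 13176, and for Jarid2 3419 and 5607.

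The other CDK inhibitors were mostly not called. Of 5 tested genes 0 rose and 1 fell, Cdkn1c (p57Kip2), by 1.75 on the log2 scale (adjusted p = 0.000414), with a list median of -0.46. Against number 1 alone 0 rose and 2 fell, and against number 2 alone 1 rose and 1 fell. Cdkn1c overlapped between the ages, at 122.5 to 3388 in adult spheres, against 1594 to 4421 in embryonic forebrain spheres, and was detected on 7 of 9 adult arrays. Of 17 genes of the RB pathway downstream of the Ink4 proteins, 4 rose and 6 fell (median -0.17). The balance differed with the embryonic arrays used, at 1 higher and 8 lower against number 1 and 5 higher and 5 lower against number 2. Ccnd1, the cyclin partner of the kinases that Ink4 proteins block, rose to a mean of 31438 in adult spheres, against 12866 in embryonic forebrain spheres (log2 1.77, adjusted p = 0.00281), whose arrays averaged 21238 in number 1 and 4493 in number 2. The transcription factor E2f2 fell by 1.44, cyclin Ccne2 by 1.24 and the kinase Cdk6 by 1.03.

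Genes that p53 is known to activate rose together. Of 28 tested genes 19 rose and 0 fell, with a median log2 difference of 1.14, against 0.07 over all genes represented by 1 probe set. The death receptors Tnfrsf10b and Fas were 3.08 and 2.88 higher on the log2 scale, the Akt inhibitor Phlda3 2.97 and the desmosomal apoptosis effector Perp 2.39. These sizes depended on the embryonic arrays used. In the same order the embryonic means were 816, 293, 2117 and 3965 in number 1, and 114, 46.25, 321 and 359 in number 2. Perp overlapped between the ages, at 2609.5 to 9255 in adult spheres, against 290 to 5949 in embryonic forebrain spheres. Phlda3 had 5005 to 7938 in adult spheres, against 292 to 2402 in embryonic forebrain spheres. These genes also differed between the embryonic arrays: the summed signal of the list was 143530.0 to 184144 in adult spheres, against 108119 to 130734 in the arrays of number 1 and 69589 to 79424 in those of number 2. Against number 1 alone 16 of 28 rose and against number 2 alone 23 of 28, with 0 lower both times.

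The regulators of p53 did not move as one. Of 19 tested genes 2 rose and 11 fell (median -0.38), and against the embryonic arrays of number 1 alone 2 rose and 4 fell, and number 2 alone gave 2 and 10. Without dorsal 2 the number that fell was 5, and without ventral 2 it was 6. Mdm2, the ubiquitin ligase that degrades p53 and is itself a p53 target, rose by 0.97 on the log2 scale (adjusted p = 3.21e-05). The p53 relative Trp73 fell by 1.84 and the checkpoint kinases Chek1 and Atm by 1.24 and 0.92. Trp73 was dim, with a mean of 58.9 in adult spheres and detection on 2 of 9 adult arrays. Its embryonic forebrain means were 156.5 in number 1 and 513 in number 2.

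Among regulators known to act upstream of Cdkn2a, Cdkn2b and Cdkn1a, 11 of 19 tested genes rose and 5 fell (median 0.82), with 9 and 4 against number 1 alone and 10 and 4 against number 2. The list was not sorted into activators and repressors, so these counts give no direction for the members. The 7 TGF-beta ligands, receptors and Smads on the list were split, 4 rising and 3 falling. Smad3 was higher by 1.85, the ligand Tgfb2 by 1.79 and the receptor gene Tgfbr2 by 1.55 on the log2 scale. Klf4, an activator of Cdkn1a, was higher by 1.71. Tgfb2 had a mean of 10023.7 in adult and 3072 in embryonic forebrain spheres (adjusted p = 2.06e-06). Tgfb1 was detected on 5 of 9 adult and 0 of 4 embryonic forebrain arrays and was at least 3.02-fold higher (means 210.5 and 50.8, adjusted p = 0.00117). The receptor gene Tgfbr1 was lower, with a log2 difference of -1.12, and so were Smad2 (-0.57, adjusted p = 0.0105) and Smad4 (-0.45, adjusted p = 0.0167).

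**Figure D4:**
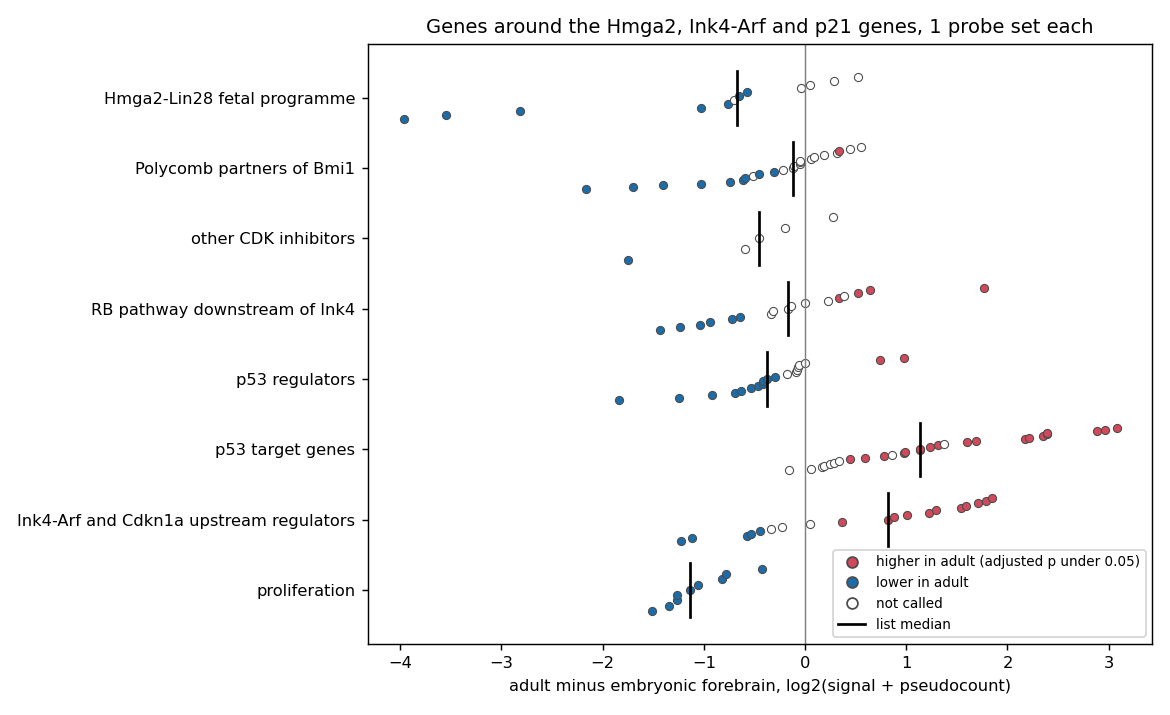
Adult minus embryonic forebrain difference on the log2(signal + pseudocount) scale for each gene of the pathway lists and the proliferation list, 1 probe set per gene. Red points are called higher, blue points lower, open points are not called, and black bars are list medians. The p53 target median stands at 1.14 and the fetal programme median at -0.68, while Hmga2 itself, not on the list, was 2.98 higher.

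The genes most alike to each member across the 14 arrays are given as a description, since the arrays share the 2 ages. For Hmga2 they were Fam171a1, Synpo and C1ql3, with Pearson correlations of 0.970, 0.967 and 0.959. For Bmi1 they were Mrps11, Cxadr and Pip5k1c (0.887, 0.873 and 0.862), and for Cdkn2a Parp3, Rab6a and Dag1 (0.953, 0.951 and 0.951). Cdkn2b was matched by Synj2, P2rx7 and Dynlt3 (0.986, 0.985 and 0.982). For Cdkn1a they were Sesn2, Pros1 and Ccng1 (0.995, 0.994 and 0.992). Sesn2 averaged 2935 in adult spheres, against 1577 in the embryonic arrays of number 1 and 268.5 in those of number 2, and Ccng1 27362, against 19435 and 4172. For 1427739_a_at the correlations were lower, at 0.858 with Ppp1r8, 0.857 with Yrdc and 0.827 with Elac2.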

How the data were processed

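Per the file headers, the authors deposited a linear intensity (signal) for each probe set and array, and a detection p-value for each. No source used here gives the software version or the scaling of these signals. Signals had a pseudocount of 27 added (0.1 times the median of the array medians, 269.95), were put on a log2 scale and were centred on each array's median, after which 64 control probe sets were left out. Differences were tested two-sided with limma 3.58.1 in R 4.3.3 (lmFit and eBayes with a variance trend, 1 mean for each of 6 groups, 8 comparisons). The platform annotation of 2016 gives 1 gene for 34958 probe sets, several for 932 and none for 9211. Where a gene was detected on no array of the dimmer group, its fold is a lower bound set, per array, against the higher of its own signal and the lowest signal among probe sets detected on all arrays of that group.

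The members and lists were chosen with earlier results of these data known. All 11 members are named; in each pathway list up to 4 called genes with the largest absolute log2 change are named, and 3 genes most alike for each member gene. Lin28a, Lin28b, Trim71, Myc, Nr6a1 and Dicer1 were picked after their values were seen. So were the TGF-beta genes other than Smad3, Tgfb2 and Tgfb1, and the cell-type markers named in passing. The p53 element was searched for after the promoter sequences had been read.

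Whether a shared sample number pairs arrays was checked by correlating, across probe sets, each array's departure from its group mean. The correlation was 0.25, 0.109 and 0.112 for neocortex with striatum, where the numbers were taken to pair the samples, 0.031 to 0.064 for neocortex with SVZ, 0.147, 0.133 and 0.0465 for striatum with SVZ, and 0.577 for dorsal with ventral forebrain, where 2 arrays each leave only 1 free deviation. For adult with embryonic forebrain arrays of the same number the correlation was -0.0132 to 0.0621. The sample labels state no pairing. Array names in the header of the deposited detection table carry codes shared across the 3 adult regions, 1 code shared by a dorsal and a ventral array, and another shared by a dorsal, a ventral and the spinal cord array. What these codes mark is not stated, nor which numbered sample each array is. Simulated data, in which 200 of 35211 probe sets were changed, tested the fit. Their noise was normal, with 1 SD per probe set for all groups and no split by sample number. In the data 41.2% of probe sets were called for adult against embryonic forebrain. The shares below therefore describe the simulated setting and not the recovery in these data. With adult set against embryonic forebrain, 82.5% of 4-fold and 29.5% of 2-fold changes were recovered. With single adult regions against embryonic forebrain, the shares were 72% and 13.5% (neocortex), 77.5% and 12.5% (striatum) and 69% and 18.5% (SVZ). Between adult regions they were 57.5% and 9.5% (neocortex against SVZ), 62% and 12% (striatum against SVZ) and 66.5% and 15% (neocortex against striatum), and for dorsal against ventral forebrain 53.5% and 2.5%. Alternatives tried were other pseudocounts (6.75 and 108), no centring, quantile normalization, other detection filters, array weights, no variance trend, only the compared groups, a threshold of 0.01, the sample number as a block, each array left out, and the embryonic arrays of 1 number only.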

Additional observations from a re-analysis of the deposited data

How the results depend on the processing

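The count of 9 members called for adult against embryonic forebrain was 8 or 9 under all 26 alternatives, and 8 or 9 as arrays were left out, Bmi1 1417493_at being the member lost. With the replicate block its adjusted p was 0.0639 and 8 members were called. That block also joins adult and embryonic samples of the same number, for which no pairing is known. It is therefore no paired test of age, nor of 2 adult regions alone. The block moved no other count of members called in the 8 comparisons, 0 for neocortex against striatum included. Adult neocortex against embryonic forebrain had 5 members called in place of 8 with only the compared groups in the fit, and 8 each time an array was left out. Adult striatum against embryonic forebrain had 5 in place of 8 with only the compared groups and at a threshold of 0.01, and 5 to 8 as arrays were left out. Neocortex against SVZ had 3 in place of 0 with array weights, 2 with only the compared groups, and 0 to 3 as arrays were left out. The differences of the unnamed pair lay so near 0 that their sign turned: 1426538_a_at lay between -0.322 and 0.028 on the log2 scale as arrays were left out, above 0 without ventral 1 alone. As arrays were left out 1427739_a_at lay between -0.217 and 0.178, and it was 0.012 with the replicate block and 0.021 against the embryonic arrays of number 2. The cause of these shifts was not tested.

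The alternatives for the gene lists were chosen after seeing the data. The p53 target, fetal programme, Polycomb, RB and upstream lists stayed within 1.5 times their counts under all 26. Other CDK inhibitors had 2 called in place of 1 under 9 alternatives, among them no centring and quantile normalization, and p53 regulators had 6 to 8 in place of 13 under 3. Without centring the median of all probe sets moved to -0.08, in place of 0.01, and the share of calls that were higher to 45.2%, in place of 52.4%, with 48.1% after quantile normalization. All probe sets called ranged from 1360 to 6550 (3703 as reported) for neocortex against SVZ, 82 to 4837 (814) for striatum against SVZ, 57 to 470 (166) for neocortex against striatum, and 0 to 201 (14) for dorsal against ventral forebrain. Signals of Cdkn2a in embryonic spheres lay near background, which limits its fold.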
